A study of Mus musculus with 162 samples.

Results

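Cajal-Retzius identity genes are 10 genes known from earlier work on mouse cortex to mark or specify Cajal-Retzius cells: Trp73, Lhx1, Lhx5, Nhlh2, Ebf1, Ebf2, Ebf3, Barhl2, Calb2 and Ndnf. They were taken by name, and all 10 were found among the 22879 genes of the count table. Each library holds the cytosol of a single embryonic mouse cell, taken up with a patch-clamp pipette at E17.5-E18.5. Of 162 such cells, 122 came from the Htr3a Cre line, 22 from the Lhx6 Cre line and 18 from the Nex Cre line. No treatment and no other allele is named, and the labels do not give the reporter, the brain region or the animal of a cell. A Cre line marks cells by the promoter it was built on, so each line offers only the cells in which that promoter has been active. The submitters failed 14 cells and gave the passed ones 9 type labels: 12 Cajal Retzius, 33 Glutamatergic 1, 13 Glutamatergic 2, 18 MGE-derived 1, 24 MGE-derived 2, 11 CGE-derived, 4 GABAergic, 11 VZ-derived and 22 Undefined. The abbreviations are not expanded in the labels. MGE and CGE usually stand for the ganglionic eminences (medial, caudal) that make cortical interneurons, VZ for ventricular zone.

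Cajal-Retzius cells are early-born, mostly transient neurons of the cortical marginal zone, best known for secreting reelin, which guides the layering of the cortex. They arise from several borders of the embryonic pallium, and not every factor listed here is known from every source. p73, LHX1, LHX5, NHLH2, the EBF proteins and BARHL2 are DNA-binding factors, whereas calretinin (Calb2) is a calcium-binding protein and NDNF is a secreted neurotrophic factor.

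All 12 cells labelled Cajal Retzius came from the Htr3a line, and they were compared with other cells of that line. Animals, litters and cultures are not named, so that they cannot be told apart from the label. Each group was therefore treated as 1 sample, no test was run, and the spread given is that between cells. How the submitters typed the cells is not given in the sources used here. The labels may rest on the expression of these same cells, and high levels of the 10 genes under the label are then no independent evidence for it. Passed cells held 1710224 to 24836041 counts, with a median of 9463972.5, in 2066 to 14810 genes. The Cajal Retzius cells had a median of 13692912.5 counts and 6714 genes, against medians of 4563 to 7585 genes in the other labels. Levels are CPM, the counts of a gene per 1000000 counts of its cell. A group's level is the CPM of its summed counts, with an exact Poisson 95% interval that covers counting error only, because reads of amplified cDNA are not independent molecules.

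Of the markers fixed for the type, Reln and Trp73 had counts in 12 of 12 Cajal Retzius cells, Nhlh2 and Cacna2d2 in 11, Lhx1 and Lhx5 in 10 and Ebf3 in 9. Of these 7, all but Reln and Cacna2d2 are among the 10 genes themselves. Reln, the gene of reelin, stood at 10152 CPM in these cells, and the lowest of them had 2543 CPM. Slc17a6, a vesicular glutamate transporter gene, was present in 12 of 12 cells, and Slc17a7, the transporter gene of most cortical glutamatergic neurons, had 0 counts. Htr3a itself, the gene whose promoter drives Cre in this line, ranged from 0 to 398 CPM and had no count in 3 of the 12 cells.

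Within the Cajal Retzius cells, 8 of the 10 genes were found in at least 9 of 12 cells, and Ebf1 and Barhl2 were found in 2 and 4. Levels were also divided by the joined length of all annotated exons of a gene, whichever of them its transcripts used. The order between genes depends on that length, which is 10.1 kb for Ndnf and 1.74 kb for Calb2. Per kilobase of it, Calb2 was highest at 649 CPM per kb. It was followed by Nhlh2 at 129, Trp73 at 84.2, Ndnf at 82.6, Lhx5 at 64.1 and Lhx1 at 20.9 CPM per kb. The EBF genes and Barhl2 lay lower, with Ebf2 at 12.3, Ebf3 at 6.70, Barhl2 at 2.02 and Ebf1 at 0.844 CPM per kb. Levels of the 10 genes per length thus spanned from under 1 CPM per kb, for Ebf1, to over 600, for Calb2. The summed level of the 10 genes ran from 1135 CPM in Cajal Retzius cell 3 to 5835 CPM in cell 4, or 0.114% to 0.584% of a cell's counts.

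**Figure D1:**
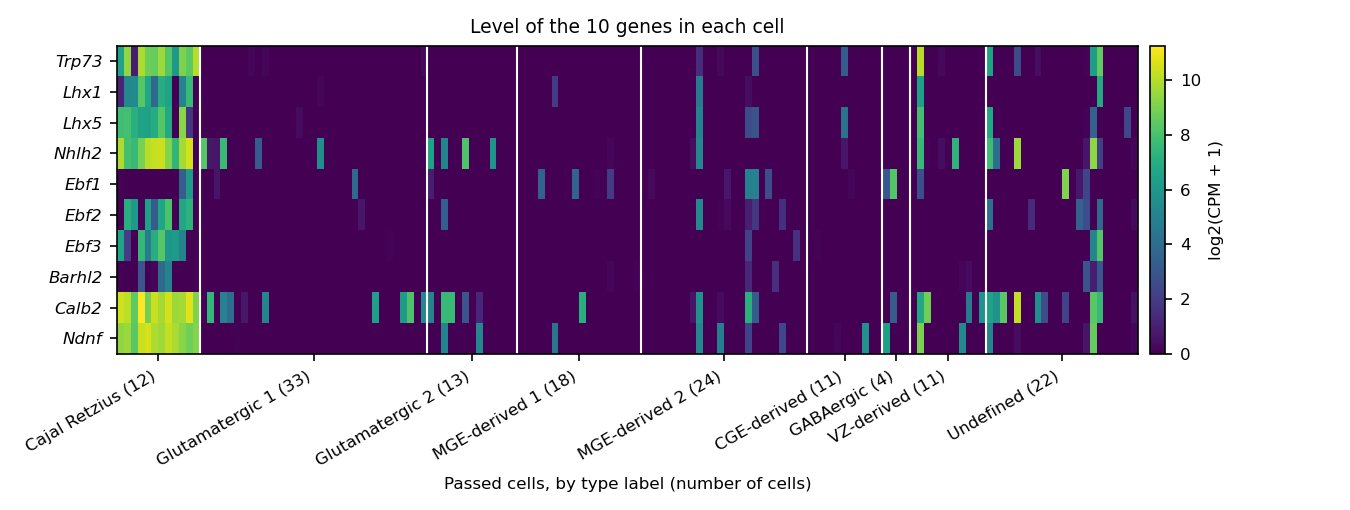
Level of each of the 10 genes as log2(CPM + 1), by colour, in each passed cell, in columns grouped by type label with the number of cells in brackets. The 12 Cajal Retzius columns at the left are bright for most rows, the rows of Ebf1 and Barhl2 are dark in most of them, and single bright columns appear under VZ-derived and Undefined.

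Trp73 (chr4:154056253-154140208, minus strand, coordinates of GENCODE M21 on build GRCm38) encodes p73, a relative of p53 that Cajal-Retzius cells are known to need for survival. Its level in the 12 Cajal Retzius cells was 0.931 CPM at the lowest, 415 at the median and 1050.3 at the highest, and 466 CPM (463 to 469.6) in the sum. Cell 3 held the lowest value, from 15 counts, and cell 9 the next at 62.9 CPM. The other typed neurons were the 77 cells of the Htr3a line labelled Glutamatergic, MGE-derived, CGE-derived or GABAergic. VZ-derived and Undefined cells were in neither group. In the 77 other typed neurons Trp73 was found in 6 cells, the highest at 8.41 CPM, and summed to 0.177 CPM. Cell 3 was the only Cajal Retzius cell inside that range. The summed level was 2639.9 times that of the other typed neurons, and the difference of the mean log2(CPM + 1) was 7.87, with an SD over cells of 2.54 and 0.51. In both Glutamatergic labels of this line together Trp73 had 2 counts in 35 cells.

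The gene has a distal and an internal start, which give p73 forms with and without the transactivation domain, and counts per gene do not separate them. The 250 bases before the internal start listed by RefSeq (GRCm38.p6, chr4:154097174-154097423, minus strand) are shown with those before the starts of Lhx1 (chr11:84525535-84525784, minus strand) and Ebf3 (chr7:137314446-137314695, minus strand), because these factors were found together in most Cajal Retzius cells. The Trp73 stretch lies inside Trp73, overlaps its antisense gene Trp73os, and lies wholly within an annotated exon, whose gene was not recorded. The Lhx1 stretch shares 89 bases with an exon of the antisense gene Lhx1os, and the Ebf3 stretch overlaps no annotated exon. Each is written 5′ to 3′ in the direction of the gene, with matches to the motifs searched in capitals.
Trp73: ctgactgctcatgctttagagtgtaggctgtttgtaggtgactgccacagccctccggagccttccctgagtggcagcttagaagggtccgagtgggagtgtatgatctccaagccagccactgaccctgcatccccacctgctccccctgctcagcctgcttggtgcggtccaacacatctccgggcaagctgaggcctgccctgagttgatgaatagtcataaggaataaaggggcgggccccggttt
Lhx1: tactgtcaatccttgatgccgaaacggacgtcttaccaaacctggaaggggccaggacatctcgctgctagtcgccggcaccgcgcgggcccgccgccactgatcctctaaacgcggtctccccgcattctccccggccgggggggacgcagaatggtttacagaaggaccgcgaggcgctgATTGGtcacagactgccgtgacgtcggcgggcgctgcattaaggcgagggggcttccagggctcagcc
Ebf3: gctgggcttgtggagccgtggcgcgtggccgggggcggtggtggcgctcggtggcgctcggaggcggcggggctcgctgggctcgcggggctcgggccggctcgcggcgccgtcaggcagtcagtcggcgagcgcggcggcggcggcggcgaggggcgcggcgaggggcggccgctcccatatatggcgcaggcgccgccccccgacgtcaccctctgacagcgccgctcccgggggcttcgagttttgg

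RefSeq starts were matched for 6 of the 10 genes, 8 starts in all (Trp73, Lhx1, Nhlh2, Ebf1, Ebf3 and Barhl2), and motifs were searched on both strands of the 250 bases before each. The EBF motif TCCCNNGGGA was in 0 of the 8 stretches and in 0.779% of 32851 stretches of that length before all starts. The E-box CAGCTG was in 1, before the distal start of Trp73, and in 13% of all. The CCAAT box was in 2 of 8, before Lhx1 (the capitals above, on the opposite strand) and before Nhlh2, and in 33.8% of all. The homeodomain motif TAATTA, in 4.84% of all, the p53 family motif CATGNNNNNNCATG, in 0.490%, and the TATA box TATAAA, in 12.4%, were in 0 of 8. The stretches were rich in G and C for Ebf3 (80.0%) and Lhx1 (64.8%) and less so for the internal start of Trp73 (58.4%), beside a median of 52.4% over all. A match or its absence describes only these letters in these windows.

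Lhx1 (chr11:84518284-84525535, minus strand) and Lhx5 (chr5:120431699-120441223, plus strand) encode closely related LIM-homeodomain factors, and LHX5 is known to act in the formation of Cajal-Retzius cells at the cortical hem. Lhx1 had a lowest level of 0, a median of 39.2 and a highest of 310.3 CPM in the 12 cells. Lhx5 had a lowest of 0, a median of 118 and a highest of 622 CPM. Both genes were found in the same 10 cells and were both at 0 in cells 9 and 12. Within those 10 cells their levels did not rank alike: cell 4 had the most Lhx1 (310.3 CPM) and 89.8 CPM of Lhx5, cell 10 had the most Lhx5 and 33.1 CPM of Lhx1, and cell 11 had 195 CPM of Lhx1 and 2.28 CPM of Lhx5. In the 77 other typed neurons Lhx1 was found in 3 cells (highest 23 CPM) and Lhx5 in 5 (highest 33.1 CPM), both highest in MGE-derived 2 cell 9. The summed levels were 264 and 231 times as high in Cajal Retzius cells, with log2 differences of 4.66 (SD 2.90 and 0.52) and 5.54 (SD 3.25 and 0.86). The groups overlapped for both genes because of the Cajal Retzius cells at 0.

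Nhlh2 (chr3:102010076-102015492, plus strand), a basic helix-loop-helix factor gene of newborn neurons, was found in 11 of 12 Cajal Retzius cells. Its lowest level there was 0, in cell 12, its median 721 and its highest 1468 CPM, in cell 11. The other 10 cells lay between 163 and 1342 CPM. Of the factor genes it had the most counts in the other typed neurons. It was found in 15 of these 77 cells, up to 314 CPM in Glutamatergic 1 cell 1, so the ranges of the groups overlapped. Summed levels were 701 against 19.1 CPM, 36.6 times as high, with a log2 difference of 7.74 (SD 2.89 and 2.06). Of those 15 neurons, 11 carried a Glutamatergic label and 4 the label of a GABAergic class (MGE-derived, CGE-derived or GABAergic). The summed level was 41.0 CPM in the former and 0.95 CPM in the latter.

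The EBF factors are helix-loop-helix proteins of neuronal differentiation and migration, and EBF2 and EBF3 are known from Cajal-Retzius cells. Ebf2 (chr14:67233292-67430918, plus strand) had a lowest level of 0, a median of 76.1 and a highest of 261 CPM in the 12 cells. Ebf3 (chr7:137193673-137314445, minus strand) had a lowest of 0, a median of 45.7 and a highest of 312 CPM. At 10 or more counts Ebf2 was found in 8 cells, Ebf3 in 9 and both in 6, so the 2 genes did not mark the same cells. Cells 1, 4 and 9 had Ebf3 without Ebf2 at 10 counts, cells 3 and 11 had Ebf2 without Ebf3, and cell 12 had neither. In the other typed neurons Ebf2 was found in 7 of 77 cells, up to 40.3 CPM, and Ebf3 in 3, up to 3.93 CPM. Summed levels were 98.1 times as high for Ebf2 and 1130.2 times as high for Ebf3, with log2 differences of 4.13 (SD 3.35 and 0.77) and 4.39 (SD 3.10 and 0.32). Ebf3 had 0 counts in the 35 Glutamatergic cells of the Htr3a line, which puts Cajal Retzius cells at least 7523-fold higher against a floor of 3 counts over that group.

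Ebf1 (chr11:44617317-45008091, plus strand) did not follow its relatives. It was found in Cajal Retzius cells 10 (9.78 CPM) and 11 (71.3 CPM) and was at 0 in the other 10, and cell 11 held 85.4% of its counts. In the other typed neurons it was found in 12 of 77 cells, and the highest value, 301 CPM in GABAergic cell 2, was above every Cajal Retzius cell. Summed levels were 8.23 and 5.47 CPM, a ratio of 1.5, and the log2 difference was 0.37 (SD 1.96 and 1.38). Without the Cajal Retzius cell of highest level this difference was -0.12. Against the GABAergic classes of the line alone the log2 difference was 0.14 and the ratio of summed levels was 0.852, so the 2 measures differed in sign.

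Among all 9 labels Ebf1 was highest in the 4 GABAergic cells, at 64.4 CPM, of which cell 2 held 96.8% of the counts, and at 2.58 CPM without it. EBF1 is also known from striatal projection neurons and from mural cells of vessels. GABAergic cell 2 had the highest summed level of the 12 striatal neuron markers among the 42 Htr3a line cells of the GABAergic classes, 884 CPM against a median of 54.0. Higher sums of these markers stood in cells with 0 counts of Ebf1: 1431 CPM in MGE-derived 1 cell 5 of the Lhx6 line and 2103 CPM in Cajal Retzius cell 9. The highest Ebf1 level of any cell was 539 CPM, in Undefined cell 12, which also had the highest summed level of the 14 mural and leptomeningeal markers among Undefined cells, 769.8 CPM against a median of 0. The part of such transcripts in the Ebf1 levels was not tested.

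Barhl2 (chr5:106452523-106458166, minus strand) encodes a BarH-like homeodomain factor of the developing forebrain. It was found in 4 of the 12 cells: 30.8 CPM in cell 8, 14 in cell 7, 6.93 in cell 4 and 0.117 CPM, a single count, in cell 6. Cell 8 held 72.6% of the counts. In the 77 other typed neurons it was found in 4 cells, the highest at 1.86 CPM, so that 9 Cajal Retzius cells lay within their range and the 3 highest lay above it. Summed levels were 4.66 and 0.0336 CPM, a ratio of 139, whereas the log2 difference was 0.96 (SD 1.84 and 0.22) because most cells were at 0. All 3 cells with 10 or more counts of Barhl2 also held Ebf3 and Lhx1.

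Calb2 (chr8:110137502-110168210, minus strand), the gene of calretinin, was the most abundant of the 10 and was found in 12 of 12 Cajal Retzius cells. Its level was 359.6 CPM at the lowest, 995 at the median and 2467 at the highest. Among the 77 other typed neurons 19 had a count, and the highest of these, Glutamatergic 2 cell 3, reached 191 CPM. The lowest Cajal Retzius cell was thus above the highest of these 77 neurons. It lay under VZ-derived cell 3 (458 CPM) and Undefined cell 5 (1194 CPM) of the same line, which are in neither group. Summed levels were 1132 and 14.1 CPM, a ratio of 80.0, and the log2 difference was 8.95 (SD 0.82 and 2.18).

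Ndnf (chr6:65671590-65712326, plus strand) is known from Cajal-Retzius cells and, later, from neurogliaform interneurons of layer 1. It was found in 12 of 12 Cajal Retzius cells at 331 CPM at the lowest, 769 at the median and 1525 at the highest, the narrowest spread of the 10 genes (SD of log2 0.64). Among the 77 other typed neurons 9 had a count, up to 51.7 CPM in CGE-derived cell 9. The groups did not overlap. VZ-derived cell 2 (517 CPM) and Undefined cell 16 (386 CPM) of the line, in neither group, lay within the Cajal Retzius range. Summed levels were 836 and 2.98 CPM, a ratio of 281, and the log2 difference was 9.19 (SD 0.64 and 1.33).

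**Figure D2:**
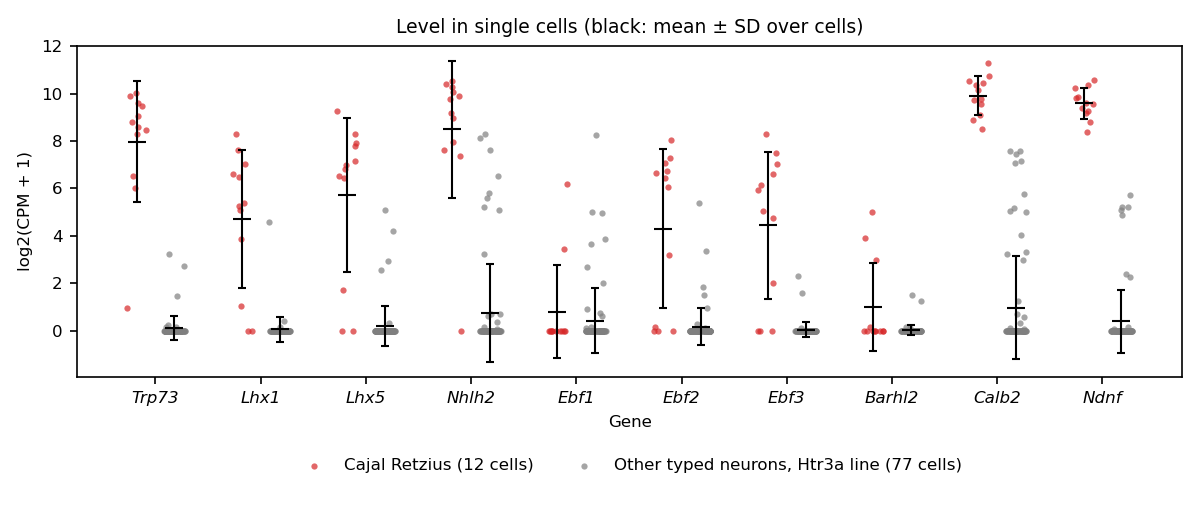
Level of each gene as log2(CPM + 1) in the 12 Cajal Retzius cells (red) and in the 77 other typed neurons of the Htr3a line (grey), a point per cell, with the mean and SD over cells in black. Calb2 and Ndnf are the genes whose red points all lie above the grey ones, and the genes of DNA-binding factors have red points at 0 or, for Trp73 cell 3, near it. VZ-derived and Undefined cells are not shown.

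Called higher or lower here means a log2 difference of at least 1 and was read only for genes that 10% or more of a group's cells held, in either group. Against the other typed neurons, 8 of the 10 genes were called higher and 0 lower, and the 2 not called were Ebf1 and Barhl2. The median difference of the 10 was 5.10, beside 0.40 over all 13331 genes measured. Of those genes, 30.6% were called higher and 7.01% lower, so a call by itself was common. By size, Ndnf ranked 2 and Calb2 3 of 13331, Trp73 13, Nhlh2 14, Lhx5 52, Lhx1 98, Ebf3 113 and Ebf2 140, with Barhl2 at 4212 and Ebf1 at 6784. Of the 10, 6 passed the filter through the Cajal Retzius cells alone, and the counts of calls describe the members without supporting the label. Barhl2 reached 1.06 and was called when Cajal Retzius cell 12 was left out.

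**Figure D3:**
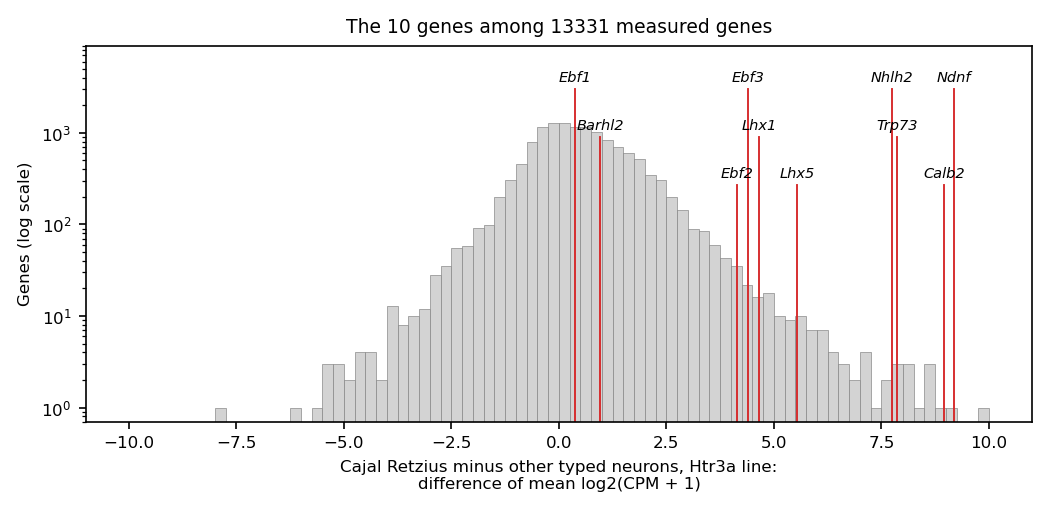
Distribution of the difference of mean log2(CPM + 1), Cajal Retzius minus other typed neurons of the Htr3a line, over 13331 measured genes (grey bars, genes on a log scale), with the 10 genes as red lines whose height only separates the names. Ebf1 at 0.37 and Barhl2 at 0.96 lie within the main body of genes and the other 8 lie between 4.13 and 9.19.

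Against each side of the comparison alone the calls were much the same. Against the 35 Glutamatergic cells of the line, 9 of the 10 were called higher and 0 lower, beside 30.5% and 9.13% of 12873 genes. Barhl2 stood at the threshold there, at 1.00, with 0 counts in the Glutamatergic cells and at least 567-fold by the floor of 3 counts, and it was not called without cell 8 or with the authors' normalized values (0.93). Against the 42 cells of the 4 GABAergic classes (GABAergic, CGE-derived, MGE-derived 1 and 2), 8 were called higher and 0 lower, beside 32.3% and 7.24% of 13563 genes. Through the Cajal Retzius cells alone, 8 of the 10 passed the filter against the Glutamatergic cells and 6 against the GABAergic classes. The Cajal Retzius cells are the same in the 3 comparisons, which are therefore not independent.

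Across all 9 labels, 9 of the 10 genes had their highest mean log2(CPM + 1) under Cajal Retzius, the exception being Ebf1. For 8 of them, all but Barhl2, the step down to the next label was larger than the SD over cells of either label. Below that first step no neighbouring labels in the order differed by more than the larger of their SDs, for any of the 10 genes. The second label was Undefined for Trp73, Ebf2, Ebf3, Barhl2 and Calb2, VZ-derived for Lhx1 and Lhx5, Glutamatergic 2 for Nhlh2 and GABAergic for Ndnf. At the bottom, Trp73 had 0 counts in Glutamatergic 2, MGE-derived 1 and GABAergic cells, Ebf2 in MGE-derived 1, CGE-derived, GABAergic and VZ-derived cells, and Ebf3 in Glutamatergic 2, MGE-derived 1, GABAergic and VZ-derived cells. Trp73 summed to 3 counts in 33 Glutamatergic 1 cells, 0.0102 CPM (0.00210 to 0.0298).

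Several of the levels below Cajal Retzius came mostly or wholly from a single cell. For Ndnf, all 1296 counts of the 4 GABAergic cells were in cell 1. Of the 8103 counts of Trp73 in VZ-derived cells, 8102 were in VZ-derived cell 2, which also held every count of Lhx1, Lhx5 and Ebf1 under that label. Without that cell Trp73 stood at 0.00953 CPM in the label. Undefined cell 17 held 65.5% of the Trp73 counts, all the Lhx1 counts and 87.4% of the Ebf3 counts of Undefined cells, and Undefined cell 16 held 93.0% of their Ndnf counts.

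The 2 genes most often found outside the label were Calb2 and Nhlh2. Calb2 was found in 10 of 33 Glutamatergic 1, 5 of 13 Glutamatergic 2, 4 of 11 VZ-derived and 10 of 22 Undefined cells, with highest levels of 276, 191, 458 and 1194 CPM. Calretinin is also known from a class of interneurons of the caudal ganglionic eminence, but Calb2 had 0 counts in the 11 CGE-derived cells, which allows up to 0.0256 CPM in the group at a floor of 3 counts. In MGE-derived cells of the Htr3a line it was found in 6 of 28. Ndnf was found in 2 of 11 CGE-derived cells and 99.8% of its counts there were in cell 9.

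Between the CGE-derived and MGE-derived labels of the Htr3a line, 8 of the 10 genes could be measured, all but Lhx1 and Ebf3, and of these 0 were called higher and 0 lower. Of the 8, 7 passed the filter through the MGE-derived cells alone. Over all 14223 genes measured 8.58% were called higher and 19.3% lower in CGE-derived cells. The largest differences of the 8 were -0.87 for Calb2 and -0.67 for Ebf1. Microglia markers differed as well, with 9 of 10 called lower in CGE-derived cells. Their summed level ran from 0 to 109 CPM in CGE-derived and from 0 to 16785 CPM in MGE-derived cells, highest in MGE-derived 2 cell 9. The medians of these sums went the other way, 2.24 CPM in CGE-derived and 0.779 CPM in MGE-derived cells. The part of the microglia markers in these values was not tested.

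Driver lines were compared within labels that hold cells of 2 lines. Among MGE-derived cells, 14 of the Lhx6 line against 28 of the Htr3a line, the same 8 genes were measured and 0 were called in either direction, beside 9.01% of 14147 genes higher and 20% lower. Of the 8, 7 passed the filter through the Htr3a line cells alone. Calb2 had 0 counts in the 14 Lhx6 line cells, a difference of -0.87. All 10 microglia markers were called lower in the Lhx6 line cells, where they summed to between 0 and 561 CPM, and their part was not tested. Of 6 erythrocyte genes measured, 3 were called higher in them.

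Among Glutamatergic 1 cells, 10 of the Nex line against 23 of the Htr3a line, 5 of the 10 genes could be measured (Trp73, Nhlh2, Ebf2, Ebf3 and Calb2). Trp73, Ebf2 and Ebf3 passed the filter through 1 Nex line cell each, on 1 to 3 counts, and Nhlh2 through Htr3a line cells alone. Of the 5 measured, Calb2 was called higher and Nhlh2 lower, beside 14.3% and 19.1% of 12508 genes. Calb2 was found in 4 of 10 Nex line and 6 of 23 Htr3a line cells, with summed levels of 40.9 and 11.2 CPM and a difference of 1.61 (SD 3.41 and 2.15). Nhlh2 had 0 counts in the 10 Nex line cells and was found in 7 of 23 Htr3a line cells, at 36.8 CPM, with a difference of -1.14 (SD 0.00 and 2.52). Both differences were smaller than the larger SD over cells, and both calls were lost when the cell of highest level was left out (Calb2 to a value just under 1, Nhlh2 to -0.81). Other lists moved in the same comparison. Of 5 erythrocyte genes measured, 4 were called lower in the Nex line cells, with a median difference of -2.28, and the list summed to 0 to 22.3 CPM there and 0 to 2029 CPM in the Htr3a line cells. Of 12 pan-neuronal markers, 6 were called higher and 2 lower, with a median of 1.01. Their part in the 2 calls was not tested.

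No cell held all 10 genes. Cajal Retzius cells held 3 to 9 of the 10 with 10 counts or above, with a median of 8, and 11 of 12 had 5 or more. The medians of the other labels were 0 or 1. With a gene taken as found from 1 count, the Cajal Retzius range and median were the same, both in full and with each cell thinned to 1500000 counts. Thinned cells were not scored at 10 counts.

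**Figure D4:**
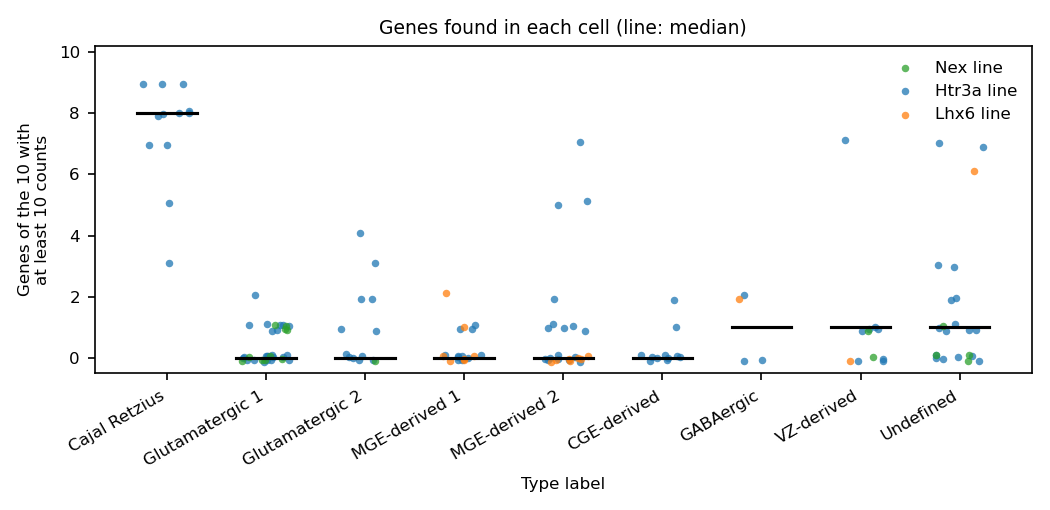
Number of the 10 genes with at least 10 counts in each passed cell, by type label, coloured by driver line, with the median of each label as a black line; points are spread slightly sideways and up or down to show overlaps. Cajal Retzius cells range from 3 to 9 with a median of 8, and 7 cells of other labels hold 5 to 7.

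Cajal Retzius cell 12 had the fewest, 3, and these were Trp73, Calb2 and Ndnf. It had the highest Trp73 of the 12 (1050.3 CPM) and 14251 CPM of Reln, with 0 counts of Lhx1, Lhx5, Nhlh2, Ebf1, Ebf2, Ebf3 and Barhl2. Lhx6, an interneuron gene, was at 595 CPM in it, and the 8 GABAergic markers summed to 1416 CPM, against a median of 0.0496 over the 12 cells, while Gad1 and Gad2 were at 0. Cell 9 held 5 of the genes, Trp73, Nhlh2, Ebf3, Calb2 and Ndnf. Its 12 striatal markers summed to 2103 CPM, the highest of the 12 cells, against a median of 35.7. Cell 3, with the lowest Trp73, Calb2 and Ndnf, had the highest summed level of the 10 microglia markers (1087 CPM, median 24.6), and P2ry12 was at 0 in all 12 cells. Cell 8, next for these markers at 965 CPM, held 9 of the 10 members with a summed level of 4087 CPM. The part of these other transcripts in the members' levels was not tested.

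Outside the label, 5 or more of the 10 genes reached 10 counts in 7 cells. VZ-derived cell 2 held 7, with Trp73 at 1067, Ndnf at 517, Lhx5 at 235 and Reln at 6205 CPM, and Gad1 and Gad2 at 0. Of these values, Trp73 lay above the highest Cajal Retzius cell (1050.3 CPM) and the other genes of the 4 lay within their range. Calb2 at 106 and Slc17a6 at 26.1 CPM lay under the lowest Cajal Retzius cell (359.6 and 59.0 CPM), and Ebf2, Ebf3 and Barhl2 were at 0. Undefined cell 17 held 7, with Trp73 at 381, Ebf3 at 307 and Reln at 5914 CPM, and no count of Lhx5 or Ndnf. Undefined cell 16 held 7, with Nhlh2 at 662, Ndnf at 386 and Reln at 4052 CPM, beside Lhx6 at 167, Gad1 at 135 and microglia markers at 9144 CPM. These 3 cells came from the Htr3a line.

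In the remaining 4 cells Reln was at 329 CPM or less. Undefined cell 1, of the Lhx6 line, held 6 of them, with Nhlh2 at 218, Lhx5 at 103 and Trp73 at 89.2 CPM, beside Lhx6 at 1818 and Gad1 at 504 CPM. MGE-derived 2 cell 9 held 7, between 1.80 CPM for Trp73 and 54.0 CPM for Calb2, with Gad1 at 260.0 and Lhx6 at 335 CPM and microglia markers at 16785 CPM. MGE-derived 2 cells 16 and 17 held 5 each, with 14810 and 13214 genes detected and microglia markers at 2305 and 13917 CPM. The part of a second cell's transcripts in these libraries was not tested.

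Of 20 other genes known from Cajal-Retzius cells or their sources, 18 were measured against the other typed neurons. They had 10 called higher and 2 lower, beside 30.6% and 7.01% of the 13331 genes measured, and a median of 1.43. Reln led with a log2 difference of 8.71, followed by Pcp4 at 6.75, a calmodulin-binding peptide gene, Nr2f2 at 5.37 and Emx2 at 4.73, transcription factor genes. Cacna2d2, a calcium channel subunit gene, stood at 4.40 and Tbr1 at 3.97. Rspo3, a gene of the cortical hem, and Spock1 were called lower, at -1.72 and -2.16. Eomes had no counts in either group. Of the regional factors, Zic1 (1.56, 8 of 12 cells) and Zic5 (1.29, 4 of 12) were called higher, and Zic2 was found in 3 cells. The list was drawn up with earlier results of these cells known.

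Relatives and partners of the factors did not follow them. Of 28 listed, 22 were measured, with a median of -0.48. Of these, 2 were called higher and 6 lower, beside 30.6% and 7.01% of all genes measured. Lhx2, another LIM-homeodomain gene, was higher by 2.58 and was found in 10 of 12 Cajal Retzius cells. Rlim, which encodes a ligase that acts on LIM cofactors, was higher by 1.46. The LIM-only genes Lmo3 (-3.97), Lmo4 (-2.02) and Lmo1 (-1.52) and the cofactor genes Ldb2 (-1.69) and Ssbp3 (-1.38) were lower, as was Lhx6 (-1.98), while the cofactor gene Ldb1 differed by 0.08. Trp53, the relative of Trp73, was found in 7 of 12 and 41 of 77 cells and differed by 0.10, and Trp63 had counts in 1 and 5 cells. Ebf4, at -0.44, was found in 1 of 12 Cajal Retzius cells, and the EBF partner gene Zfp423 had 0 counts in them. Barhl1 had 0 counts in Cajal Retzius cells.

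Beside these, all 8 GABAergic markers measured were called lower, among them Gad1 (-4.40), Gad2 (-3.96) and Dlx2 (-3.45). Of 13 glutamatergic markers measured, 4 were called higher and 7 lower, with Slc17a6 at 8.0 and Bcl11b at -3.07, Neurod6 at -2.94 and Slc17a7 at -2.93. Of the 10 microglia markers 0 were called higher and 1 lower, and they summed to 0 to 1087 CPM in Cajal Retzius, 0 to 5378 in Glutamatergic and 0 to 16785 CPM in the GABAergic classes. The medians of these sums were 24.6, 12.8 and 0.779 CPM in that order. Of 14 mural and leptomeningeal markers 4 were measured and 2 called higher, Rgs5 (2.50) and Cspg4 (1.35). That list summed to 0 to 151 CPM in Cajal Retzius, 0 to 451 in Glutamatergic and 0 to 253 CPM in the GABAergic classes, with 8 of the 14, Col1a2, Col3a1 and Dcn among them, at 0 in all Cajal Retzius cells. Of 5 erythrocyte genes measured 3 were called lower, with a median of -1.07, and the list summed to 0 to 53.4 CPM in Cajal Retzius, 0 to 2029 in Glutamatergic and 0 to 392 CPM in the GABAergic classes. Over all 13331 genes measured in this comparison, 30.6% were called higher and 7.01% lower. The part of these lists in the members' differences was not tested.

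The genes most like each member were found by Pearson's r of log2(CPM + 1) over all passed cells, among 15770 genes with a count in at least 5 cells. The animals of the cells are not named and the 12 Cajal Retzius cells carry most of the high values, so r is a description. Trp73 was most like Ndnf (r = 0.83), Gm15557 (0.82) and Gdf5 (0.81), and Ndnf was most like Gm15557 (0.84), Gdf5 (0.84) and Trp73. Gdf5, which encodes a growth factor of the bone morphogenetic protein family, had counts in 11 of 12 Cajal Retzius cells and 3 of 77 other typed neurons, at 371 and 1.23 CPM. Gm15557 overlaps Gdf5 by 1728 bases on the opposite strand of chromosome 2, and whether the authors counted by strand is not given in the sources used here, so reads of the 2 genes may not be told apart.

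A member was the most alike gene for 6 of the 10, namely Trp73, Lhx1, Ebf2, Ebf3, Barhl2 and Calb2. Lhx1 was most like Trp73 (0.80), Gm15557 (0.80) and Gdf5 (0.79). Lhx5 was most like Gm15557 (0.81), Gdf5 (0.81) and Mrap2 (0.80), a melanocortin receptor accessory gene. Nhlh2 was most like Gm15557 (0.76), Gdf5 (0.76) and Trp73 (0.73). Ebf2 was most like Lhx1 (0.78), Plekha7 (0.71) and Lhx5 (0.71). Ebf3 was most like Trp73 (0.76), Cenpf (0.76) and Mrap2 (0.75), and Calb2 was most like Trp73 (0.72), Nhlh2 (0.69) and Car10 (0.68). Cenpf, best known as a kinetochore gene of dividing cells, stood at 613 CPM in Cajal Retzius cells and was found in 11 of 12, against 4.61 CPM in the other typed neurons, while 1 of the 6 proliferation genes measured, Pcna, was called higher.

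Barhl2 and Ebf1 had weaker likenesses. Barhl2 was most like Ebf3 (0.64), Myocd (0.59) and Gper1 (0.59). Ebf1 was most like Fgf15 (0.63), Dlk1 (0.60) and Ifi213 (0.57), and Fgf15 and Dlk1 had 0 counts in the 12 Cajal Retzius cells.

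Overlap with other genes could touch some members. Trp73, Lhx5, Ebf1, Ebf2 and Ebf3 have annotated genes on the opposite strand within their bounds, none of which has a row in the count table, so reads from those genes may be counted with the member. Stretches of 50 bases shared with transcripts of other genes made up 0.652% of those of Lhx5, 0.620% of Barhl2 and 0.147% of Nhlh2, and none were found for the other 7.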

How the data were processed

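RNA of single mouse cells was sequenced. The build GRCm38 and the tools featureCounts, STAR and Trimmomatic are named, per the submitters' processing notes; versions are not given in the sources used here. The authors deposited whole-number counts per gene by Ensembl identifier (22880 rows, 22570 given a symbol from GENCODE M21, 22879 genes) and by symbol, a table held here in part with 5 of the 10 members. Their deposited normalized table (signal, unit not stated) equalled counts over a constant of the cell in 99.8% of values, within 0.1%. No 2 cells had equal counts.

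The members and all gene lists were chosen with earlier results of these data known. Groups are the submitters' type and line labels. The 14 failed cells were left out of every comparison. CPM used each cell's total. Differences are of the mean log2(CPM + 1), called at 1 where at least 10% of cells of either group had a count. Cells standing apart were found by Dixon's criterion at 95%. Named were all 10 members, at most 4 genes of each other list by size of difference (any of the lists of other Cajal-Retzius genes and of relatives), and the 3 genes most like each member. Cenpf's level, cells named for single values and the list counts beside them were given after their values were seen. Alternatives were the authors' table, edgeR 4.0.16 TMM factors (R 4.3.3), pseudocounts 0.1 and 10, other filters, summed counts, cells of at least 4000 genes, thinning to 1500000 counts (seed 1), the symbol table, all lines, and leaving out cells. The code was tested on simulated data. Python 3.11.15, pandas 2.3.3, numpy 2.4.6, scipy 1.17.1 and matplotlib 3.10.9 were used.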

Additional observations from a re-analysis of the deposited data

Results flagged for a closer look

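Single cells far from the rest of their set, a label within a line or a whole label, were looked for in 24 sets of 4 to 10 cells, and 18 values were marked. Chance marks about 1 set in 20, and in most of the marked sets the cell named alone had a count, so a gene found in 1 cell is marked by construction. Values are log2(CPM + 1). VZ-derived cell 2 of the Htr3a line stood apart from 7 others for Trp73 (10.06), Lhx5 (7.88), Lhx1 (6.40) and Ebf1 (2.76). The 4 GABAergic cells were taken as 1 set, although cell 1 came from the Lhx6 line and the other 3 from the Htr3a line. In it, cell 1 stood apart for Ndnf (6.41) and GABAergic cell 2 for Calb2 (3.24). Among MGE-derived 1 cells of the Lhx6 line, cell 6 stood apart for Ndnf (4.38) and Lhx1 (1.94) and cell 4 for Ebf1 (3.55), and among MGE-derived 2 cells of that line cell 2 did for Ebf1 (0.28, 1 count). In Glutamatergic 1 cells of the Nex line the marked values were 0.69 for Ebf2 in cell 24, 0.23 for Trp73 in cell 33 and 0.13 for Ebf3 in cell 28, from 1 to 3 counts each. In Undefined cells of the Nex line, cell 21 was marked for Lhx5 (2.44) and cell 22 for Calb2 (0.50), Ebf2 (0.27), Nhlh2 (0.14) and Ndnf (0.14).

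Of the 14 cells that failed quality control, which no comparison used, 1 held any of the 10 genes. Failed cell 12, of the Htr3a line and labelled Undefined, had 24 counts of Trp73 (5.30 CPM) and 51 of Calb2 (11.3 CPM) of 4532334.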

How the results depend on the processing

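In the 3 comparisons of Cajal Retzius cells, the members called higher stayed between 8 and 10 and those called lower at 0. This held under each alternative run that kept all 10 members. The table by symbol holds 5 of them and was scored for those alone. Members' single differences moved by less than the SD over cells in 124 of 135, 112 of 125 and 124 of 135 values. The values that moved further did so mostly under other pseudocounts or summed counts, and no called difference changed sign. In the other 3 comparisons the counts rested on single cells. With summed counts, CGE-derived against MGE-derived cells gave 1 member higher and 5 lower, and the Lhx6 against the Htr3a line gave 7 lower. With a pseudocount of 0.1 these comparisons gave 2 and 1 lower. For the Nex against the Htr3a line, 0 were higher and 0 lower with a pseudocount of 10 or without the cell of highest level, and 0 were higher among cells of at least 4000 genes. The cause was not tested. Leaving out each GABAergic cell kept 9 of 10 members highest under Cajal Retzius. No paired analysis was possible because the cells' numbers were given in accession order and pair no cells. Precision is limited by the 12 cells and their unknown number of animals, by cytosol that may hold part of a cell's RNA, and by transcripts at a few counts, for which a count of 0 does not show absence.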
